A study of Homo sapiens with 22 samples.

Results

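H3K4me3, the histone mark of active promoters, was compared between THP-1 cells with knockdown of QKI5 and sh-control THP-1 cells. THP-1 is an established human monocytic leukaemia line, and QKI5 is the form of the splicing regulator QKI that resides in the nucleus. The knockdown cells carried a lentivirus with sh-QKI5 and the others a lentivirus with sh-control, per the sample labels, whereas the series design text calls the sh-control cells untreated. Of the 22 samples of the series, 4 are H3K4me3 ChIP samples, 2 from knockdown cells and 2 from sh-control cells, and the authors deposited 1 peak list per condition, made from both replicates. On chromosomes 1 to 22, X and Y the lists held 21358 knockdown peaks and 21953 sh-control peaks, and all of them were compared. Peaks of both lists that overlapped by 1 bp or more were called shared, and all others single-list peaks. A single line was used, the labels do not say whether replicates came from separate cultures, and no value below has a replicate check, so differences between the lists carry no p-value.

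Trimethylation of lysine 4 on histone H3 is laid down by the SET1 and MLL methyltransferase complexes and removed by KDM5 demethylases. It sits around the starts of active genes, many of them in CpG islands, where proteins with CXXC domains recruit the methyltransferases to unmethylated CG. In monocytes and macrophages it marks lineage genes and genes that stand ready for induction. The width of a peak is the only graded value in these lists, so a peak is described below by its presence, its width and its breaks. A width says how far along the DNA the caller joined enriched windows, and it is not a level of the mark.

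The lists fitted the label of a monocytic line. Of 14 monocytic marker genes, 12 had an H3K4me3 peak at their start in the knockdown list and 11 in the sh-control list. SPI1, CEBPA and CEBPB, the transcription factors that set myeloid identity, and CD14, CD33, CSF1R and LYZ were among those marked in both. MPO and FCGR1A had no peak in either list, and AIF1 had one in the knockdown list alone. None of 4 erythroid and none of 4 epithelial markers had a peak in either list. The T cell genes BCL11B and CD8A, the B cell gene PAX5 and the fibroblast genes COL1A1 and PDGFRA had one in both, and CD79B had one in the knockdown list alone.

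Nearly all of the marked DNA was common to both conditions. In the knockdown list 9.22% of peaks were in that list alone, and in the sh-control list 12% were. These were 1970 knockdown peaks (95% exact interval of the share 8.84 to 9.62%) and 2639 sh-control peaks (11.6 to 12.5%), where the intervals cover counting error only. The single-list peaks held 2.17% of the base pairs of the knockdown list and 2.77% of those of the sh-control list. The DNA under a peak in both lists came to 55.06 Mb, which is 90.8% of the 60.62 Mb covered in knockdown and 87.6% of the 62.83 Mb covered in sh-control. The largest marked domain of either list lay over HOXA9, a homeobox gene of myeloid progenitors, and was 43370 bp wide in knockdown and 44507 bp in sh-control.

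Promoter sequences of 4 genes marked in a single list are given first, because they carry the widest differences in presence at an annotated start. Each is the 300 bases from 250 before to 50 after the annotated gene start, 5' to 3' on the strand of the gene, from RefSeq on GRCh38.p14, with every CG in capitals. HK3, a hexokinase of myeloid cells (chr5:176899297-176899596, minus strand), and GAL3ST4, a sulfotransferase gene (chr7:100168568-100168867, minus strand), had the widest peaks of such genes in the knockdown list. SMOC1, which encodes a secreted matrix protein (chr14:69879166-69879465, plus strand), and MRPL45, a mitochondrial ribosomal protein gene (chr17:38296918-38297217, plus strand), had the widest peaks of such genes in the sh-control list. All of them were chosen after their values were seen.
HK3: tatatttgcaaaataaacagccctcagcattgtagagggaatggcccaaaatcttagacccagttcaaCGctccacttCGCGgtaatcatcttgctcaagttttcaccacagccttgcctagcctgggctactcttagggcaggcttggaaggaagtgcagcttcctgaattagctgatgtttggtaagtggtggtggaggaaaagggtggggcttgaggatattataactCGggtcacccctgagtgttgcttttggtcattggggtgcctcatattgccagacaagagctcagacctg
GAL3ST4: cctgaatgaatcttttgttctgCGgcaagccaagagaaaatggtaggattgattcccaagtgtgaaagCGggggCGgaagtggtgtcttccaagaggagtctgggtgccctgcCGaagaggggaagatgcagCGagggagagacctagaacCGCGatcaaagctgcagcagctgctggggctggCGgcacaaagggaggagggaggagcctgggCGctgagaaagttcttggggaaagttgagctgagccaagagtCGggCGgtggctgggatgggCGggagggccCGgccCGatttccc
SMOC1: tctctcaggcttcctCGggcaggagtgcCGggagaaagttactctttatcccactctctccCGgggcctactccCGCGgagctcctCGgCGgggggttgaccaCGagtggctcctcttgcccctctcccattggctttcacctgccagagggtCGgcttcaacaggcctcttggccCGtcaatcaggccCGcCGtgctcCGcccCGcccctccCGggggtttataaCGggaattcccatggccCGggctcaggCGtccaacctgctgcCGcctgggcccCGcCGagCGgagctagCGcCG
MRPL45: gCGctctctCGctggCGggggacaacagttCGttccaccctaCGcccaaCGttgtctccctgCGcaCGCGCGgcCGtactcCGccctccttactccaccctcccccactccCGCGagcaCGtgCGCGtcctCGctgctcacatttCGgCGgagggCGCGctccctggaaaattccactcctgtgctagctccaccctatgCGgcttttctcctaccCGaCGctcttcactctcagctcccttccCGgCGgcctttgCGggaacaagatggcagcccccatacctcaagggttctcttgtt

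HK3 carried 4 CG in this window and GAL3ST4 carried 14, while SMOC1 carried 24 and MRPL45 carried 28. The HK3 peak was 1590 bp wide in knockdown, where HK3 also had a Pol II peak of 4091 bp, and HK3 had neither mark in sh-control. GAL3ST4 had an H3K4me3 peak of 1452 bp and a Pol II peak of the narrowest width listed, 0.501 kb, in knockdown and neither in sh-control. At SMOC1 and MRPL45 no H3K4me3 peak was listed in knockdown, against peaks of 2011 and 1350 bp in sh-control, and no Pol II peak was listed in either condition. The order of CG content among these 4 genes was not that of the classes as a whole. For the classes 1 window per gene was counted, at the lowest chromosome position where a gene had several starts. That window need not hold the start at the peak, whereas the printed windows are those nearest the peak. The median number of CG was 14.5 over 98 genes marked in knockdown alone and 9 over 45 genes marked in sh-control alone. It was 26 over 11079 genes marked in both lists, 5 over 4620 genes marked in neither and 22 over all 15842 promoters.

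At least 10 CG stood in this window for 55.1% of the genes marked in knockdown alone and 48.9% of those marked in sh-control alone. The share was 88.7% for genes marked in both, 30.3% for genes marked in neither and 71.3% for all promoters. Single-list genes thus lay between the genes marked in both and the unmarked genes. The letters TATAAA, searched on both strands, stood in the window of 8 of the 98 genes marked in knockdown alone (8.16%). They stood in that of 10 of the 45 genes marked in sh-control alone (22.2%). The shares were 5.71% of genes marked in both lists, 19.9% of those marked in neither and 9.91% of all. TATAAA holds no CG, and of the printed promoters only that of SMOC1 holds it. A match of letters is a description and not a bound site.

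At the level of genes, a protein-coding gene counted as marked when a peak lay within 1 kb of its start, or of either outer end for the 4195 genes with no annotated start here. Of 20037 genes, 67.6% were marked in both lists, 0.684% in knockdown alone and 0.339% in sh-control alone. These were 13555, 137 and 68 genes. Where the other list had to be empty for 5 kb around, 91 genes were marked in knockdown alone and 38 in sh-control alone. Without the 5 kb rule a gene can lie on a peak that the other list overlaps farther from the start. NLGN2, with 5688 bp in knockdown, and TGFBR3L, with 7466 bp in sh-control, were such genes. No peak free of overlap exceeded 2237 bp in knockdown or 4075 bp in sh-control. Most peaks were narrow, with a median of 789 bp over the 137 knockdown genes and 826.5 bp over the 68 sh-control genes. The median was 4016 bp for the wider peak at genes marked in both. With either outer end used for every gene, 156 genes were marked in knockdown alone and 111 in sh-control alone.

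The 5 widest peaks of each list with no overlapping peak in the other were then examined. In the knockdown list the widest was at AIF1, which encodes a calcium-binding protein of macrophages, at 31614511 to 31616747 on chromosome 6. It was 2237 bp wide, lay 2641 bp from the nearest sh-control H3K4me3 peak, and overlapped 2 knockdown Pol II peaks and no sh-control Pol II peak. The others were a peak of 2211 bp whose nearest gene was CLEC11A, a peak of 2167 bp inside NOTCH1, a peak of 2053 bp at NEK6 and a peak of 1999 bp inside SNX10. NOTCH1 encodes a receptor of cell-fate signalling, NEK6 a mitotic kinase and SNX10 an endosomal sorting nexin. The peak at the start of NOTCH1 itself was 6632 bp wide in knockdown, against 4269 bp in sh-control. The NEK6 peak lay 25060 bp from any sh-control peak and the SNX10 peak 9865 bp, while the one near CLEC11A lay only 609 bp away. The NOTCH1 and CLEC11A peaks overlapped Pol II peaks in both conditions, the SNX10 peak overlapped Pol II peaks in knockdown alone, and the NEK6 peak overlapped 1 of the narrowest width in sh-control alone.

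In the sh-control list the 5 widest such peaks lay inside genes and at none of their starts. A peak of 4075 bp lay in OLA1, which encodes an ATPase, 156 bp from a knockdown peak. A peak of 3583 bp lay in HNRNPC, a gene of a nuclear RNA-binding protein, 4050 bp from one. Peaks of 3152 bp in DST, 3084 bp in PHLPP1 and 2945 bp in NIPBL lay 3675, 1664 and 8437 bp away. DST encodes a cytoskeletal linker, PHLPP1 a phosphatase of kinase signalling and NIPBL the loader of cohesin. The peaks in OLA1, HNRNPC and PHLPP1 overlapped Pol II in both conditions, the one in DST in knockdown alone and the one in NIPBL in sh-control alone. All 5 of these genes were marked at their own starts in both lists.

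Most single-list peaks were far smaller. Their median width was 0.501 kb in both lists, which is the narrowest width that either list holds. Only 174 of the 1970 knockdown peaks and 219 of the 2639 sh-control peaks exceeded 1 kb. The median distance to the nearest peak of the other list was 12010 bp for knockdown peaks and 8367 bp for sh-control peaks. Within 1 kb of a peak of the other list lay 16.4% of the knockdown peaks and 20.6% of the sh-control peaks, and beyond 5 kb lay 65.3% of the knockdown peaks and 57.8% of the sh-control peaks.

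The single-list peaks of knockdown lay at gene starts more often than those of sh-control. For the position of peaks and pairs, here and below, genes were protein-coding or long non-coding RNA (lncRNA) genes, 38340 in all. A peak counted as at a gene start within 1 kb of it, or of either outer end for 11037 genes with no annotated start. Some of these peaks may therefore lie at the far end of a gene. At a gene start were 282 knockdown peaks, 14.3% (12.8 to 15.9%), and 221 sh-control peaks, 8.37% (7.35 to 9.50%), a difference of 5.94 percentage points (Newcombe 95% interval 4.09 to 7.84). Inside a gene and away from its start were 56.8% of the knockdown peaks and 65.4% of the sh-control peaks, a difference of -8.60 points (-11.4 to -5.76). Between genes lay 28.9% of the knockdown peaks and 26.2% of the sh-control peaks, a difference of 2.66 points (0.0599 to 5.28). Among shared peaks 69.5% of the knockdown list and 69.8% of the sh-control list were at a gene start, so both single-list sets were mostly away from promoters. Neighbouring peaks are not independent, and the number of peaks of that narrowest width also differed between the lists, 1764 in knockdown and 2123 in sh-control. Without peaks of that width the shares at a gene start were 18.2% in knockdown and 8.79% in sh-control. With a window of 2500 bp the shares at a gene start were 22.6% in knockdown and 18.6% in sh-control.

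**Figure D1:**
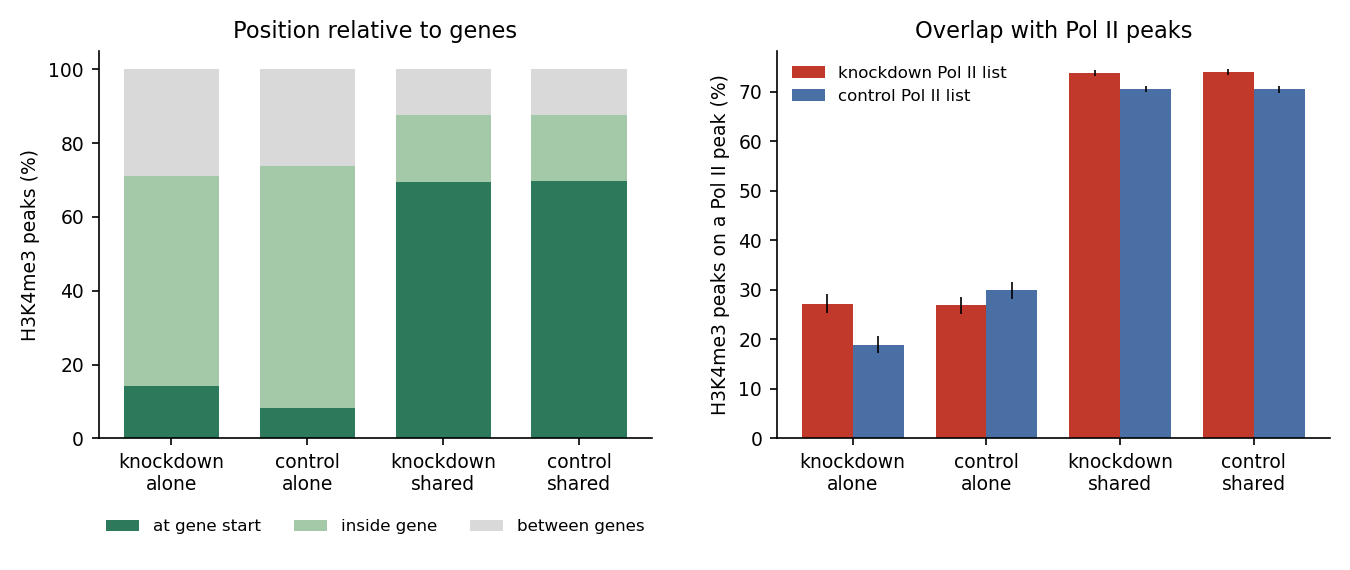
Left, share of H3K4me3 peaks (%) at gene starts, inside genes and between genes, with protein-coding and lncRNA genes counted. Where no start was annotated, either outer end counted. Bars are peaks of knockdown alone, sh-control alone and the shared peaks of each list. Right, share of the same peaks (%) that overlap a Pol II peak of the knockdown list (red) or the sh-control list (blue), with exact 95% binomial intervals. At gene starts lay 14.3% of knockdown-alone and 8.37% of sh-control-alone peaks, and single-list peaks overlapped Pol II at less than the 70.5 to 74.0% of shared peaks.

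Pol II was measured in separate ChIP samples, also as 1 pooled list per condition, and played no part in sorting the H3K4me3 peaks. Peaks in knockdown alone overlapped a knockdown Pol II peak in 27.2% of cases (25.3 to 29.2%) and a sh-control Pol II peak in 18.9% (17.2 to 20.7%). Peaks in sh-control alone overlapped a knockdown Pol II peak in 26.9% of cases (25.2 to 28.6%) and a sh-control Pol II peak in 29.9% (28.2 to 31.7%). Each set of single-list peaks, taken whole, lay more often on Pol II of its own condition. At gene starts the sh-control-alone peaks did not, with 28.05% on knockdown Pol II and 27.15% on sh-control Pol II. For sh-control peaks this order turned when a Pol II peak within 1 kb was accepted, with 35.6% near knockdown Pol II and 34.9% near sh-control Pol II. Both lists' shared peaks lay more often on knockdown Pol II, with 73.9% of knockdown and 74.0% of sh-control shared peaks on knockdown Pol II, against 70.7% and 70.5% on sh-control Pol II. The Pol II list was also longer in knockdown, with 35094 peaks, than in sh-control, with 33370.

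Of the 137 genes with H3K4me3 in knockdown alone, 19 had Pol II in knockdown alone, 3 in sh-control alone, 24 in both and 91 in neither. Of the 68 genes with H3K4me3 in sh-control alone, 8 had Pol II in knockdown alone, 4 in sh-control alone, 14 in both and 42 in neither. Over all genes Pol II was in knockdown alone at 3.66% and in sh-control alone at 1.64%, so the second set leaned to knockdown Pol II as the whole table did. Among genes with H3K4me3 in knockdown alone, SLC7A7, an amino acid transporter gene, had an H3K4me3 peak of 1185 bp with Pol II of 630 bp, and C3, the central complement gene, one of 1417 bp with Pol II of 940 bp. Neither gene had either mark within 1 kb in sh-control, but both had a sh-control H3K4me3 peak within 5 kb. C3 had no annotated start here, so its peak may lie at either outer end of the gene. TBXAS1, the thromboxane synthase gene, had an H3K4me3 peak of 951 bp in sh-control alone and no Pol II peak in either list. APOE, the apolipoprotein gene, lacked an H3K4me3 peak in knockdown, against 855 bp in sh-control, and had Pol II peaks of 2353 bp in knockdown and 2865 bp in sh-control. SLC7A7, C3, TBXAS1 and APOE were chosen after their values were seen.

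Widths were compared at 18563 pairs in which 1 peak of each list overlapped only the other. The median log2 ratio of knockdown over sh-control width was -0.03, and the middle of the pairs ran from -0.19 to 0.12 between quartiles. Of these pairs 3.06% were at least 1.5-fold wider in knockdown and 3.85% at least 1.5-fold narrower, which are 568 and 714 pairs. Such changes were mostly in small peaks. Of pairs with a mean width up to 1 kb, 12.2% were wider and 14.0% narrower, against 0.112% and 0.292% of pairs over 4 kb and up to 8 kb. At gene starts 217 of 13004 pairs were wider and 195 narrower, while inside genes 230 of 3220 were wider and 361 narrower.

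**Figure D2:**
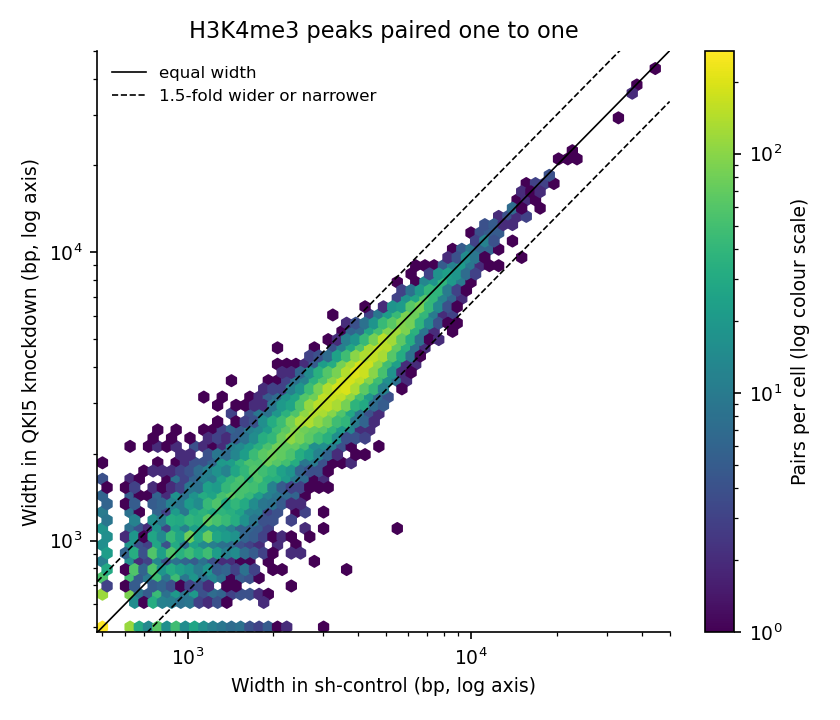
Width of each of the 18563 one-to-one H3K4me3 pairs in knockdown (vertical, bp, log axis) against sh-control (horizontal, bp, log axis), with colour giving the number of pairs per cell on a log scale. The solid line marks equal width and the dashed lines 1.5-fold, and the cloud narrows around equal width as peaks get wider.

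Edges were placed relative to transcription at 7695 pairs over gene starts of a single strand. The upstream edge of the knockdown peak lay a median of 22 bp inside that of the sh-control peak (-22 bp), and the downstream edge 40 bp inside (-40 bp). In pairs past 1.5-fold the downstream edge, on the gene side, moved further than the upstream edge. In 130 pairs at least 1.5-fold wider in knockdown, the upstream edge moved outward by a median of 288 bp and the downstream edge by 490.5 bp. In 114 pairs at least 1.5-fold narrower, the medians were -352.5 bp upstream and -798 bp downstream. The downstream edge lay inward in 110 and the upstream edge in 104 of those 114 pairs. Inward edges are largely fixed by choosing narrower pairs.

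At the level of genes with a pair at their start, 1.08% of 13023 genes had a peak at least 1.5-fold wider in knockdown and 1.23% a narrower one. Among 10788 pairs whose wider peak was at least 2000 bp, the largest gain was at OCA2, a transporter of melanosomes, with 2153 bp in knockdown against 754 bp in sh-control, a log2 ratio of 1.51. CACNA1H, a subunit of T-type calcium channels, had 3063 bp in knockdown against 1304 bp in sh-control, and PEAK3, a pseudokinase gene, 2332 against 1003 bp. TMEM150B had 2025 bp in knockdown against 952 bp in sh-control. CACNA1H, PEAK3 and TMEM150B carried Pol II peaks in knockdown, of 0.501 kb, 1646 bp and 2206 bp, and none in sh-control. At OCA2 no Pol II peak was listed in either condition.

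Next in order of gain were the phosphodiesterase gene PDE11A, with 2607 bp in knockdown against 1273 bp in sh-control, and PRELID2, with 4169 against 2037 bp. TERT, the catalytic subunit of telomerase, had a peak of 2822 bp in knockdown against 1411 bp in sh-control, and no Pol II peak in either. CELF5, an RNA-binding protein gene, had 2050 against 1042 bp, NHSL3 had 2303 against 1179 bp and GLMP, a lysosomal membrane protein gene, had 2943 against 1525 bp. PRELID2 and GLMP had Pol II in both conditions. At 9 of these 10 genes the knockdown peak reached past both edges of the sh-control peak, and at NHSL3 it reached past the right edge alone.

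**Figure D3:**
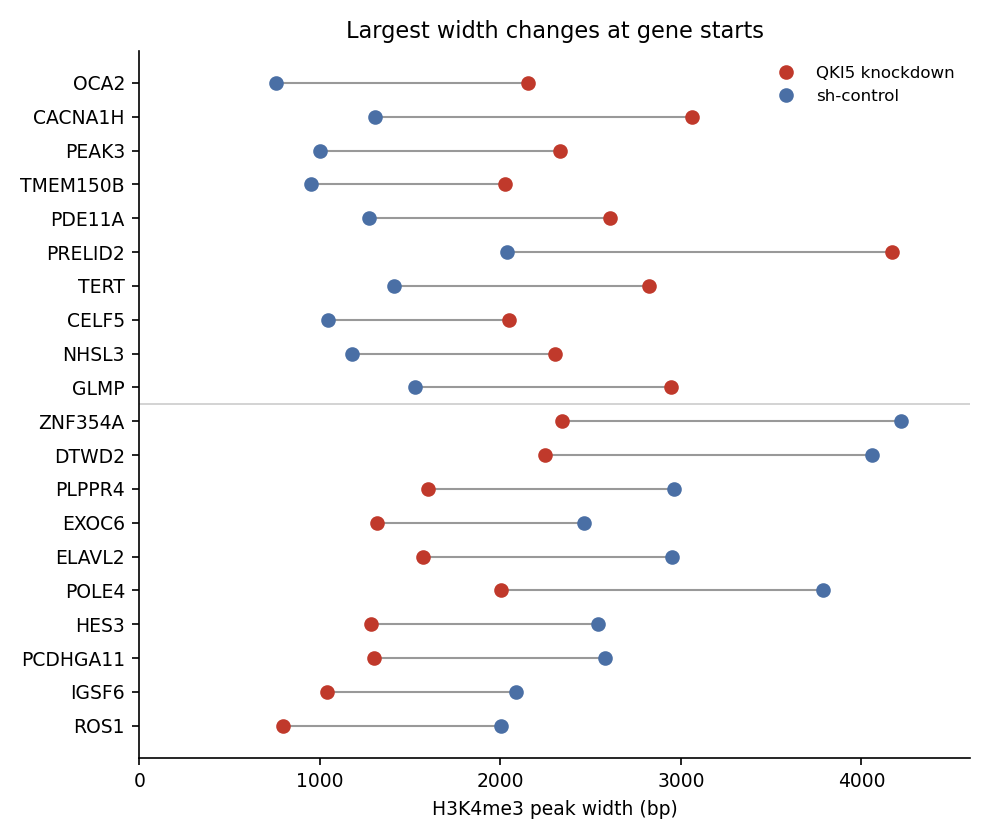
Width (bp) of the H3K4me3 peak at the 10 genes with the largest gain (top) and the 10 with the largest loss (bottom) among pairs whose wider peak was at least 2000 bp, in knockdown (red) and sh-control (blue). All 20 peaks were present in both lists, and the largest ratio is at OCA2, with 2153 bp in knockdown against 754 bp in sh-control.

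The largest loss was at ROS1, a receptor tyrosine kinase gene, with 798 bp in knockdown against 2001 bp in sh-control, a log2 ratio of -1.33. IGSF6, an immunoglobulin-domain receptor gene of myeloid cells that lies within METTL9, had 1041 bp in knockdown against 2085 bp in sh-control and no Pol II peak in either. POLE4, a subunit of DNA polymerase epsilon, had 2001 against 3787 bp, with Pol II of 1592 bp in knockdown and 1870 bp in sh-control. EXOC6 of the exocyst had 1316 against 2462 bp, DTWD2, a tRNA-modifying enzyme gene, 2247 against 4057 bp, and ZNF354A, a zinc finger gene, 2342 against 4219 bp. Pol II peaks were present in both conditions at POLE4, EXOC6, DTWD2 and ZNF354A.

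The other 4 losses were of like size. ELAVL2, a neuronal RNA-binding protein, had 1573 bp in knockdown against 2950 bp in sh-control, PLPPR4, a neuronal membrane protein, had 1597 against 2959 bp, the protocadherin PCDHGA11 had 1298 against 2577 bp and HES3, a repressor of the HES family, 1285 against 2539 bp. At ROS1, PCDHGA11 and PLPPR4 Pol II was listed in knockdown alone, with 628, 915 and 652 bp, although their H3K4me3 peaks were narrower there. The knockdown peak near HES3 ended more than 1 kb from its start, so by the gene rule HES3 counted as marked in sh-control alone although a knockdown peak overlapped the same domain. PCDHGA11 lies in a cluster of related protocadherin genes whose spans overlap.

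The promoters of the pair with the largest gain and the pair with the largest loss, in the same 300-base window from RefSeq on GRCh38.p14 with CG in capitals, show a CpG-rich and a CpG-poor start. OCA2 (chr15:28099266-28099565, minus strand) carried 32 CG, and ROS1 (chr6:117425893-117426192, minus strand) carried 3. Over all genes the contrast was smaller, with a median of 26 CG at 101 genes with a wider peak and 22 at 133 genes with a narrower one.
OCA2: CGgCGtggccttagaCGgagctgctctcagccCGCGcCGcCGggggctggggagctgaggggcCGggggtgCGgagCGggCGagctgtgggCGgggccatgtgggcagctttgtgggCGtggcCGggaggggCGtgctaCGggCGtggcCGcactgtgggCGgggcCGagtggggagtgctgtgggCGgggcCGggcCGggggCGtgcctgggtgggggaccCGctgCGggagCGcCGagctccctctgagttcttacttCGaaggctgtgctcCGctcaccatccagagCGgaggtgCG
ROS1: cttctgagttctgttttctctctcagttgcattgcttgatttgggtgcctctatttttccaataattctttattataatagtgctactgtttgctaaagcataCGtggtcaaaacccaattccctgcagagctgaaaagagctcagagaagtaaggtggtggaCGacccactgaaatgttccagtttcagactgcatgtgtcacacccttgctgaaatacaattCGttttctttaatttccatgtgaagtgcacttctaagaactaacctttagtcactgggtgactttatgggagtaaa

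Pol II width was set beside H3K4me3 width gene by gene. The median log2 ratio of Pol II width was 0.03 at 53 genes with wider H3K4me3 and Pol II in both lists, 0.05 at 95 genes with narrower H3K4me3 and 0.07 over all 10747 such genes. Pol II was in knockdown alone at 11.3% of the genes with wider H3K4me3 and at 6.25% of those with narrower H3K4me3, against 4.39% over all genes with a pair. It was in sh-control alone at 3.55% of the genes with wider H3K4me3 and at 0.625% of those with narrower H3K4me3, against 1.64% over all.

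Peaks that were whole in 1 list and broken in the other were few and lay on wide domains. Overlapping peaks formed 19073 clusters, of which 97.3% held 1 peak of each list. In 271 clusters 1 sh-control peak overlapped several knockdown peaks, 563 in all, and in 220 clusters 1 knockdown peak overlapped several sh-control peaks, 442 in all. A further 19 clusters held several of both. Of sh-control peaks over 8 kb, 18.9% (15.4 to 22.8%) were broken in knockdown, and of knockdown peaks over 8 kb, 11.7% (8.70 to 15.2%) were broken in sh-control. For peaks over 4 kb and up to 8 kb the shares were 2.76% of sh-control peaks broken in knockdown and 2.45% of knockdown peaks broken in sh-control. A gene start lay at 82.7% of the domains broken in knockdown and at 81.8% of those broken in sh-control.

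The breaks were short. Their median length was 770.5 bp in knockdown and 679 bp in sh-control, and no neighbouring peaks of a list lay closer than 499 bp. At most 1 kb long were 74.7% of the breaks in knockdown and 84.2% of those in sh-control. In 90 of the 271 domains broken in knockdown and in 78 of the 220 broken in sh-control, the smallest piece had the narrowest width. When neighbours within 1 kb were joined first, 151 domains were broken in knockdown and 82 in sh-control.

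ADGRL2, which encodes the adhesion receptor latrophilin 2, was the most broken domain. In knockdown it held 8 peaks, the widest of 11027 bp and the others of up to 1364 bp, which together covered 17468 bp. All of them overlapped 1 sh-control peak, which ran without a break from 81789515 to 81814147 on chromosome 1, 24633 bp. Pol II peaks there were also narrower in knockdown, with 6 peaks of 12760 bp in all against 3 peaks of 23703 bp in sh-control. At PARP8, an ADP-ribosyltransferase gene, 4 knockdown peaks of 29454 bp in all overlapped a sh-control peak of 32116 bp, and Pol II covered 16179 bp in knockdown and 16475 bp in sh-control.

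MBNL1, a splicing regulator, had 3 knockdown peaks of 23505 bp in all against 1 sh-control peak of 26272 bp. Pol II peaks touching the domain also differed there, with 23789 bp in knockdown and 39661 bp in sh-control. ELF1, an ETS transcription factor of blood cells, had 3 knockdown peaks of 21129 bp against 21771 bp in sh-control. In PARP8 the widest knockdown piece was 20701 bp, in MBNL1 16432 bp and in ELF1 18807 bp, so each of these domains kept a long unbroken core.

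**Figure D4:**
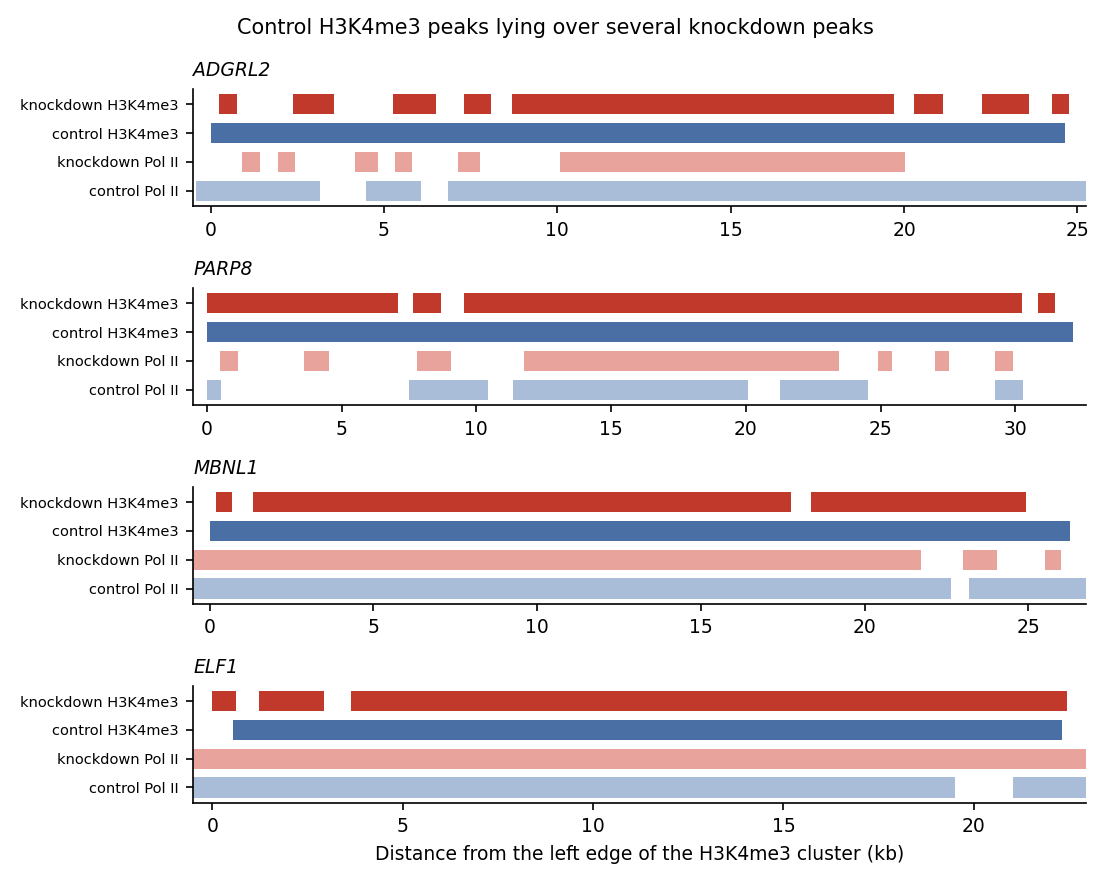
H3K4me3 and Pol II peaks along 4 sh-control domains that overlap most knockdown peaks, as distance (kb) from the left edge of the H3K4me3 cluster, each bar being 1 peak and knockdown standing above sh-control for each mark. Pol II peaks that run past the panel are cut at its edge, and ADGRL2 shows 8 knockdown H3K4me3 peaks overlapping 1 sh-control peak.

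In the other direction 2 knockdown peaks each overlapped 3 sh-control peaks. One, of 7451 bp, lay over GYS1, the muscle glycogen synthase gene, and RUVBL2, an ATPase of chromatin remodelling complexes, where sh-control peaks covered 6433 bp. The other, of 7041 bp, lay over QTGAL and LOC124904094, where sh-control peaks covered 5959 bp. The widest domains joined in knockdown lay at SP9, a transcription factor gene, with 18597 bp in knockdown against 18154 bp in sh-control, and over RECQL4, a DNA helicase gene, and its neighbours GPT, LRRC14, LRRC24, C8orf82 and SLC33A2, with 18077 against 17160 bp. SLBP, which binds histone mRNA, TACC3, a spindle protein gene, and TMEM129 shared a domain of 16794 bp in knockdown against 15333 bp in sh-control.

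By chromosome, 18 of 24 had fewer peaks in knockdown and 23 of 24 had fewer marked base pairs, the exception being chromosome 19 with 4.203 Mb in knockdown against 4.188 Mb in sh-control. Chromosomes 5 and 8 stood apart. Chromosome 5 held 1071 knockdown peaks, of which 10.8% were in that list alone, and 1180 sh-control peaks, of which 20.2% were. Chromosome 8 held 850 knockdown peaks with 12.8% in that list alone, and 939 sh-control peaks with 21.1%. On both together 11.7% (10.3 to 13.2%) of knockdown peaks and 20.6% (18.9 to 22.4%) of sh-control peaks were in a single list, against 8.98% of knockdown peaks and 11.1% of sh-control peaks on the others. Chromosomes 5 and 8 were singled out after their values were seen.

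Peaks in sh-control alone outnumbered those in knockdown alone in 19 of 19 bins of 10 Mb on chromosome 5 and in 13 of 15 on chromosome 8. These bins divide the same counts by which both chromosomes were singled out, and bins of other chromosomes are not given. Over all chromosomes, too, peaks in sh-control alone were more numerous, 2639 against 1970. Of the peaks in sh-control alone, 56.7% on chromosome 5 and 58.6% on chromosome 8 had the narrowest width. At gene starts were 5.88% of them on chromosome 5 and 7.58% on chromosome 8. Without peaks of that width the share of sh-control peaks in that list alone was 12.9% on chromosome 5 and 12.2% on chromosome 8, while over all chromosomes 92.0% of such sh-control peaks were shared. Among the other chromosomes, with all peaks, the share of sh-control peaks in that list alone reached 14.9%, on chromosome 6. Single-list shares of Pol II were also highest on chromosome 8, with 51.4% of knockdown and 49.4% of sh-control Pol II peaks, and on chromosome 5, with 47.6% of knockdown and 45.0% of sh-control Pol II peaks. DNA copy number and input coverage were not analysed here, so their part was not tested. The direction turned on chromosomes 19, 21, 22, X and Y, where the single-list share was higher in knockdown.

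**Figure D5:**
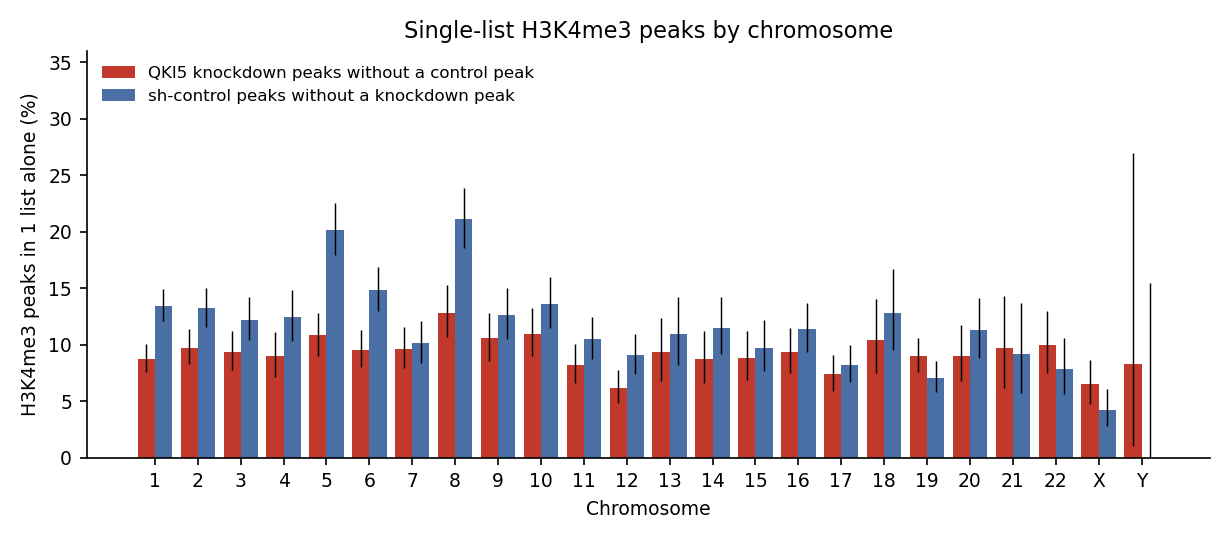
Share (%) of the H3K4me3 peaks of each chromosome found in a single list, for knockdown peaks (red) and sh-control peaks (blue), with exact 95% binomial intervals that cover counting error only. The sh-control bars of chromosomes 5 and 8 reach 20.2% and 21.1%, and no other bar exceeds 14.9%.

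QKI itself kept a wide peak. It was 8109 bp in knockdown and 10245 bp in sh-control, a log2 ratio of -0.34, while its Pol II peak was 6954 bp in knockdown and 6642 bp in sh-control. The H3K4me3 and Pol II lists carry no RNA or protein level of QKI5. The lists of QKI5 CLIP (crosslinking immunoprecipitation) held 669 peaks in knockdown and 7337 in sh-control. These are numbers of listed peaks at unknown read depth and not a level of QKI5. Of 40 splicing regulators, QKI included, 39 were marked in both lists and MBNL2 in knockdown alone with a peak of 929 bp. Their median log2 width ratio was -0.05 over 35 pairs, against -0.04 over all 13004 pairs at gene starts, and none passed 1.5-fold. The extremes were HNRNPC, with 7487 bp in knockdown against 9782 bp in sh-control, and SRSF3, with 9004 against 6736 bp.

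Genes whose RNA was bound by QKI5, by CLIP, were set beside all others. Of 2777 genes with a CLIP peak in sh-control cells, 11 were marked in knockdown alone (0.396%) and 2 in sh-control alone (0.0720%). Of 17260 other genes, 126 were marked in knockdown alone (0.730%) and 66 in sh-control alone (0.382%). The median log2 width ratio was -0.05 over 2414 pairs at bound genes and -0.04 over 10609 pairs at the others. Marked in both lists were 91.4% of the bound genes and 63.8% of the others, so the sets differed before any comparison of the lists. Bound genes also had wider peaks, with medians of 4075 bp in knockdown and 4227 bp in sh-control. At the others the medians were 3610 and 3732 bp. What lies behind the smaller single-list shares at bound genes was not tested.

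Of 38 genes listed as H3K4 methylation machinery in a broad sense, 36 were marked in both lists and none in a single list. Of all genes 0.684% were marked in knockdown alone and 0.339% in sh-control alone. The median log2 ratio of the listed genes was 0.00 over 33 pairs, with a range of -0.37 to 0.28. KMT2A, which encodes the MLL1 methyltransferase, had 4727 bp in knockdown against 6088 bp in sh-control, and SETD1A had 3970 against 3349 bp. The demethylase gene KDM5A had 3821 bp in knockdown against 4645 bp in sh-control, and KDM5B 7762 against 7388 bp. SETD1B and KDM6A had no peak at their annotated start in either list.

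Of 29 monocyte and macrophage genes, 16 were marked in both lists, AIF1 in knockdown alone and 12 in neither, among them MRC1, CD163 and FCGR1A. The median log2 ratio was -0.10 over 15 pairs, with a range of -0.57 to 0.26, and none passed 1.5-fold. The lowest was CD36, a scavenger receptor gene, with 2559 bp in knockdown against 3802 bp in sh-control. CSF1R, the receptor for macrophage colony-stimulating factor, had 3834 against 4932 bp, and TLR4, the receptor for bacterial endotoxin, 2341 against 3075 bp. ITGAM had 1575 bp in knockdown against 1319 bp in sh-control, and TYROBP 2833 against 2457 bp. Of 13 granule and progenitor genes, 10 were marked in both lists and none in a single list. The neutrophil protease genes AZU1 and PRTN3 had the same knockdown peak of 20650 bp at their starts, where sh-control had a peak of 18486 bp at AZU1 and another of 7329 bp at PRTN3. The cluster of overlapping peaks there held several peaks of both lists, so it was broken in knockdown too.

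Of 25 chemokine and cytokine genes, 14 were marked in both lists, CCL3 in sh-control alone and 10 in neither. CXCL8, the neutrophil attractant interleukin 8, had 782 bp in knockdown against 1459 bp in sh-control, a log2 ratio of -0.90. IL23A, a subunit of interleukin 23, had 2015 against 1322 bp, a ratio of 0.61. These were the only members of the 14 pairs past 1.5-fold, where 1.08% of all genes with a pair were wider and 1.23% narrower. Of all pairs with a mean width over 1 kb and up to 2 kb, as here, 4.98% were wider and 5.75% narrower. The median was -0.03 over 14 pairs. TNF had 1839 bp in knockdown against 1742 bp in sh-control. CCL3, a macrophage chemokine, lacked an H3K4me3 peak in knockdown, against 1101 bp in sh-control. Its Pol II peaks were listed in both conditions, with 2638 bp in knockdown and 2327 bp in sh-control.

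Of 25 interferon response genes, 22 were marked in both lists, IFI44 in sh-control alone with a peak of the narrowest width, and 2 in neither. OAS1, which makes the 2-5A activator of RNase L, had 635 bp in knockdown against 1530 bp in sh-control, a log2 ratio of -1.27. IFIT3, an antiviral effector, had 1019 against 1664 bp, a ratio of -0.71. These were the only members past 1.5-fold, 2 of 22 pairs and both narrower, where 1.23% of all genes with a pair were narrower and 1.08% wider. Both had small peaks, which pass more often. Of all pairs with a mean width up to 1 kb 14.0% were narrower, and of those over 1 kb and up to 2 kb 5.75%. OASL went the other way, with 3069 bp in knockdown against 2331 bp in sh-control and a Pol II peak of 815 bp in knockdown alone. Pol II did not go with H3K4me3 width at all members, since OAS1 had Pol II of 1186 bp in knockdown against 823 bp in sh-control. OAS3, with H3K4me3 of 2275 bp in knockdown against 2563 bp in sh-control, had Pol II of 895 bp in knockdown alone. The median over 22 pairs was -0.10, against -0.04 over all pairs at gene starts. Among 28 genes of other cell types, 7 were marked in both lists and CD79B, a subunit of the B cell receptor, in knockdown alone with 936 bp. All 7 pairs of that list were narrower in knockdown, with log2 ratios of -0.36 to -0.01, as were 7442 of all 13004 pairs at gene starts.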

How the data were processed

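Each condition had 2 H3K4me3 ChIP samples, and each deposited peak list was made from both, per the series design text. HOMER and the build GRCh38.p5 appear in the submitters' processing notes with no role stated, and the sources used here do not give the aligner, calling settings or use of inputs. The authors' H3K4me3 and Pol II lists carry a score of 1 and a plus strand throughout, so peaks were described by width. Reads were not analysed here and the depth of each sample is unknown. The deposited QKI5 CLIP lists were used only for the number and the gene symbols of their peaks.

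Coordinates are 1-based. Restricting both lists to chromosomes 1 to 22, X and Y left out 15 knockdown and 12 sh-control peaks on other contigs. Overlaps, clusters and widths were computed with Python 3.11.15, pandas 2.3.3 and networkx 3.6.1, and binomial intervals with scipy 1.17.1. Overlaps and clusters were tested on simulated peak lists with known answers. Gene positions came from RefSeq on GRCh38.p14, used only to place peaks beside genes. Patches of this assembly keep primary chromosome positions. A promoter table gave the start of 15842 of 20037 protein-coding genes, and either outer end served for the others. For the position of peaks and pairs lncRNA genes were added, and 27303 of 38340 genes had an annotated start. In 2590 of 2590 overlapping windows of opposite strand the promoter letters were reverse complements. CLIP symbols were matched by name for 99.3% of sh-control peaks.

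The members, gene lists and rules were chosen with earlier results of these data known. Named genes are the 10 largest gains and losses of width where the wider peak is at least 2000 bp, the 5 most split and joined domains (1 split domain is not reported here), the 5 widest peaks of a single list, list members in a single list or past 1.5-fold, and QKI. Other named genes are examples chosen after their values were seen, and no promoter of chromosome 8 was considered for printing. Alternatives changed the overlap, the window, the narrowest peaks, the joining of neighbours and the fold.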

Additional observations from a re-analysis of the deposited data

How the results depend on the processing

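No paired analysis was possible because each list pools both replicates, and for the same reason leaving out a replicate was not run. Of 51 alternatives 18 stayed near the reported value, 33 moved, and 1 order turned, that of the Pol II shares at sh-control-alone peaks given below. In each pair of values the first is for knockdown and the second for sh-control.

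Shared peaks came to 86.2% and 83.9% when 50% of each peak had to overlap, 92.3% and 90.5% when a peak within 1 kb sufficed, 93.4% and 92.0% without peaks of the narrowest width (0.501 kb), and 91.7% and 89.9% with neighbours within 1 kb joined. Genes marked in a single list numbered 91 and 38 under the 5 kb rule, and with either outer end used for every gene, an alternative chosen after seeing the data, 156 and 111. For pairs with both peaks over 1000 bp the median log2 ratio was -0.036, with 1.12% wider and 1.55% narrower in knockdown. At 2-fold 0.684% were wider and 0.943% narrower, and with neighbours joined 4.33% were narrower. Domains broken in knockdown numbered 151 and those broken in sh-control 82 with neighbours joined, and 145 were broken in sh-control without the narrowest peaks.

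Single-list peaks at gene starts were 22.6% and 18.6% with a window of 2500 bp, and 18.2% and 8.79% without the narrowest peaks. Without those peaks, sh-control-alone shares were 12.9% on chromosome 5 and 12.2% on chromosome 8. With Pol II accepted within 1 kb, knockdown-alone peaks were near knockdown Pol II in 33.9% and sh-control Pol II in 25.5% of cases, and sh-control-alone peaks in 35.6% and 34.9%. Without the narrowest peaks these were 31.4%, 21.2%, 33.0% and 36.7%. The causes were not tested. Depth and replicate spread are unknown, so small single-list peaks cannot be told apart from peaks near the calling threshold.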
